A study of Mus musculus with 6 samples.

Results

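Hox genes encode homeodomain transcription factors that lie side by side in 4 clusters, Hoxa, Hoxb, Hoxc and Hoxd. A probe counted as a Hox gene when its assigned symbol was Hox, a cluster letter from a to d, and a number. The rule found 40 probes of 38 genes, among 26423 probes and 19084 genes with a symbol on the array. Along each cluster the genes are numbered by paralogue group, from 1 at the anterior end to 13 at the posterior end. During embryonic development they are switched on roughly in that order, so that low numbers mark the hindbrain and neck and high numbers mark the lower trunk, limbs and urogenital tract. Fibroblasts and other mesenchymal cells keep a Hox pattern that reflects the body region they came from, and Hoxa9, Hoxa10, Hoxa11 and Hoxa13 in particular pattern the reproductive ducts. In the account below, groups 1 to 3 are called anterior, 4 to 8 central and 9 to 13 posterior.

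RNA of mouse gonadal cells, strain ICR, was measured on 6 single-colour (Cy5) microarrays, with 2 arrays in each of 3 groups. GSC colony arrays held colonies grown from testicular cells of 80 mice, newborn to P2, GSC being glandular stem cells in the labels' wording. CD49f+ sorted arrays held testicular cells of 100 mice of that stage, taken with an antibody to the integrin subunit CD49f on magnetic beads and not cultured. PGC colony arrays held colonies grown from gonadal cells of 67 embryos at E11.5, where PGC stands for primordial germ cells. The colonies of both kinds formed over 7 days at 5% O2 on laminin at 200 ng/cm2 with epidermal growth factor at 10 ng/ml, and were picked before RNA extraction. For the sorted cells the labels say physiological hypoxia and give no oxygen value. The labels name no genotype or allele, animals were pooled, and no sex is stated for the embryos. Nothing in the labels tells separate preparations from repeats of 1 pool, so p-values cover only the spread between the 2 arrays of a group, and that spread may be technical. Colonies and sorted cells differ in culture and in selection at once, and these cannot be told apart. Signal is of bulk RNA, in which fewer cells of a type and less RNA per cell cannot be told apart either.

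Germ cell markers were mixed in these groups. Dppa3 stayed below the 30th percentile of each array. Sohlh1 and Zbtb16 lay under it on both sorted arrays and both PGC colony arrays, and Dazl on both PGC colony arrays, while Ddx4 was above it in every group. The RNA for CD49f itself (Itga6) measured 12.26 and 12.10 in sorted cells, 11.86 and 11.76 in GSC colonies, and 12.34 and 12.44 in PGC colonies on the normalized log2 scale. As deposited, GSC colonies had array medians of 558 and 606, sorted cells of 393 and 406, and PGC colonies of 541 and 587.

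The stretches upstream of the genes whose values carried the results are shown from RefSeq (GRCm38.p6), each the 250 bases before an annotated start, 5′ to 3′ on the gene's strand. They belong to the genes with the largest differences between colonies (Hoxa9, Hoxa10 and Hoxa11), a gene that was higher in PGC than in GSC colonies (Hoxb8), and a gene with like levels in all groups (Hoxd3). Capitals mark matches to any of 3 short motifs. These are TGATTNAT, of the kind bound by a Hox protein with its partner Pbx, TTTATNG, of the kind bound by posterior Hox and Cdx proteins, and the TATA box TATAAA. Hoxa9 lies at chr6:52227371-52227620, the starts of Hoxa10 at chr6:52234940-52235189 and chr6:52240855-52241104, and Hoxa11 at chr6:52245811-52246060, all on the minus strand. Hoxb8 lies at chr11:96281655-96281904 and Hoxd3 at chr2:74711743-74711992, both on the plus strand.
Hoxa9: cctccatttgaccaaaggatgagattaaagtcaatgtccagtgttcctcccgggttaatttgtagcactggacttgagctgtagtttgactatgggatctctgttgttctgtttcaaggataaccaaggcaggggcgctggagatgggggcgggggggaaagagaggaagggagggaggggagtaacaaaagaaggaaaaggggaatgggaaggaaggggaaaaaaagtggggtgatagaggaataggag
Hoxa10 (chr6:52234940-52235189): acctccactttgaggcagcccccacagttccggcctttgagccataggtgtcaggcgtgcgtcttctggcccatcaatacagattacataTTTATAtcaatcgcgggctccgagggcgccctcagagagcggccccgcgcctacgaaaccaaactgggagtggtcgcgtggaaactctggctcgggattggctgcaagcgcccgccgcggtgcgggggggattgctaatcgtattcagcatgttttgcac
Hoxa10 (chr6:52240855-52241104): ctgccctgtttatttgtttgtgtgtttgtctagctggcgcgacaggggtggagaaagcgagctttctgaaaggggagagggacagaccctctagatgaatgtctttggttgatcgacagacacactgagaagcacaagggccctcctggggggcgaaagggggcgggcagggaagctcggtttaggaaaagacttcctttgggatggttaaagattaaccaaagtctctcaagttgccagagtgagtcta
Hoxa11: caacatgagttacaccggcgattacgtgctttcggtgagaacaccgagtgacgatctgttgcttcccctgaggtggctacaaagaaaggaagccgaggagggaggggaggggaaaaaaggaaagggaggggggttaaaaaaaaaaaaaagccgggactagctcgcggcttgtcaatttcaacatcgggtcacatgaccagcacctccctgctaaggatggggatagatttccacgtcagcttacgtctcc
Hoxb8: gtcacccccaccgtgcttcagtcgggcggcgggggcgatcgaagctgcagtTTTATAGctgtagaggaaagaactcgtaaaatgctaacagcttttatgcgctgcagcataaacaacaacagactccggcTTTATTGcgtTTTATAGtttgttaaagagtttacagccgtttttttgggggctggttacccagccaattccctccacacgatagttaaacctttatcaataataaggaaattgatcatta
Hoxd3: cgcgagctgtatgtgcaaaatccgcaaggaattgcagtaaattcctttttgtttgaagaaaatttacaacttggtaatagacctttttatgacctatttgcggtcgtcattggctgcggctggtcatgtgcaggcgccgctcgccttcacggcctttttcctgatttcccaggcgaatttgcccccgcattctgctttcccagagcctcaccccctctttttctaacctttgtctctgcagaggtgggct

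Of the 38 Hox genes, 22 had a promoter in the RefSeq table, with 24 starts. Each motif was searched on both strands over the 250 bases, and a reversed TATA box can overlap TTTATNG. TGATTNAT was held by 2 of 24 Hox stretches (upstream of Hoxa2 and of the start of Hoxd11 at chr2:74682073-74682322) and by 2.82% of 32851 stretches of all genes. TTTATNG was held by 2 of 24 (Hoxb8, with 3 matches, and Hoxd4) and by 9.81% of all. TATAAA was held by 4 of 24 (Hoxa10, Hoxb8, Hoxd4 and Hoxd13) and by 12.4% of all. The Hoxb8 matches began 199, 120 and 110 bases before the start, and the first and last of them overlap a reversed TATA box. The stretches of Hoxa9 and Hoxa11 held none of these letters. Hox stretches had a median of 12.5 CG dinucleotides and 58.6% G or C, against 6 and 52.4% over all genes, and among those shown the count of CG ran from 3 at Hoxa9 to 20 at the first-listed Hoxa10 start.

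Most Hox genes that were measured stood higher in both kinds of colony than in sorted cells. Testing required 2 or more of the 6 arrays to reach the 30th percentile of the array, a log2 level of 7.82. Of the 38 genes 29 were tested, 22 of them at or above that level on all arrays, and 9 lay under it on all arrays. Hoxa3, Hoxa9, Hoxa10, Hoxa11, Hoxc9 and Hoxd11 passed through the colony groups alone, being under the level on both sorted arrays, so such genes had to be higher in colonies to be tested at all. In GSC colonies against sorted cells 21 Hox genes were higher, 1 was lower, 7 did not pass and 9 were not tested (limma, at a Benjamini-Hochberg adjusted p below 0.05). Among all genes, 22.5% were called higher and 24.5% lower. In PGC colonies against sorted cells 23 were higher, 0 were lower and 6 did not pass, with 22.8% of all genes called higher and 23.2% lower. At an unadjusted p under 0.05 and with limma's trended fit the number of lower Hox genes there was also 0. These comparisons share the sorted arrays. The median log2 difference of the 29 tested Hox genes was 1.43 in GSC colonies and 1.47 in PGC colonies, against -0.01 and -0.02 over all genes tested. With no filter, so over all 38 genes, the medians were 1.05 and 1.10, against -0.00 and -0.02 for 19084 genes. Then 23 Hox genes were higher and 1 lower in GSC colonies, where 18.7% and 20.2% of all genes were, and 24 were higher and 1 lower in PGC colonies, where 18.7% and 19.4% were. The colony arrays were brighter as deposited. Without normalization between arrays the median of all genes moved to 0.47 and 0.42, the share of higher genes among calls rose from 47.9% to 82.5% in GSC and from 49.5% to 80.5% in PGC colonies, and 26 Hox genes were higher in each comparison.

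**Figure D1:**
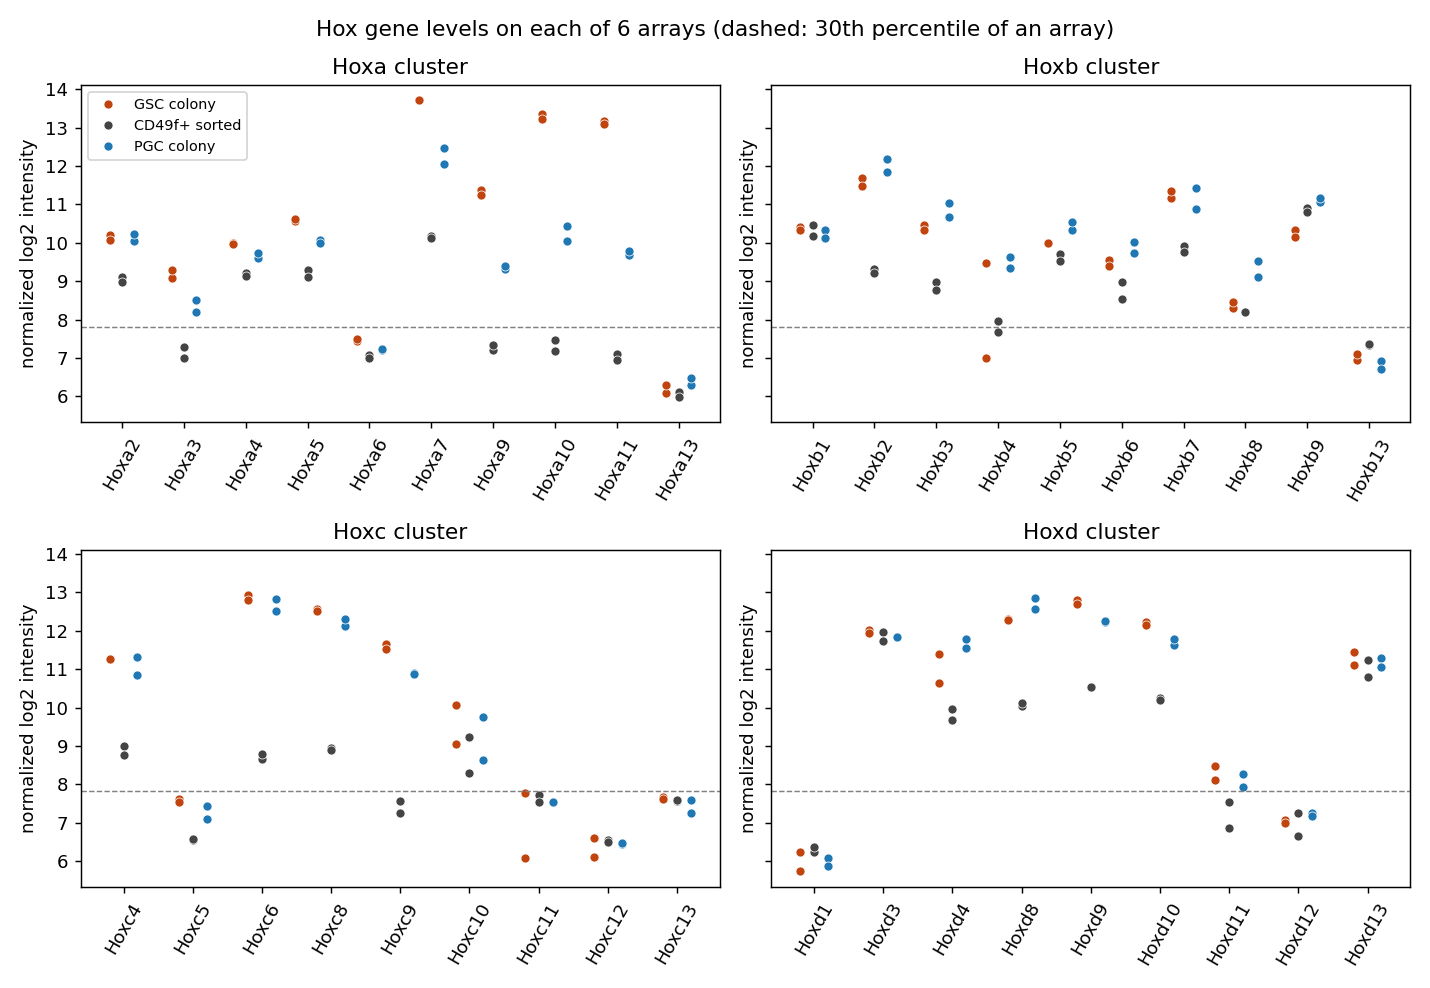
Normalized log2 intensity of each of 38 Hox genes on each of 6 arrays, 1 panel per cluster, with 2 points per group (GSC colony, CD49f+ sorted, PGC colony). The dashed line is the 30th percentile of an array (7.82), under which the sorted arrays lie for Hoxa3, Hoxa9, Hoxa10, Hoxa11, Hoxc9 and Hoxd11 while all colony arrays lie above it.

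PGC and GSC colonies differed in fewer genes. There 2 Hox genes were higher in PGC colonies (Hoxb8 and Hoxb9), 9 were lower (Hoxa3, Hoxa5, Hoxa7, Hoxa9, Hoxa10, Hoxa11, Hoxc9, Hoxd9 and Hoxd10), and 18 did not pass, with 7.08% of all genes called higher and 7.98% lower. The median of the tested Hox genes was -0.17, against 0.01 over all genes. With no filter the counts were again 2 and 9, with 5.58% and 6.4% of all genes called higher and lower. Leaving out 1 array brought the 9 lower genes to 5 without GSC colony replicate 1, GSC colony replicate 2 or PGC colony replicate 1, and to 4 without PGC colony replicate 2. Without GSC colony replicate 2 the number of higher genes was 4. Hoxa7, Hoxa9, Hoxa10, Hoxa11, Hoxb8 and Hoxb9 were called under every alternative in which they were tested.

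Markers of several other cell types differed between these groups. Over all genes 22.5% were called higher and 24.5% lower in GSC colonies than in sorted cells, and 22.8% and 23.2% in PGC colonies. In PGC against GSC colonies 7.08% were higher and 7.98% lower. Marker counts near these shares are no result about a list. Of 12 tested fibroblast and mesenchyme markers 12 were higher in GSC and 12 in PGC colonies than in sorted cells, and in PGC against GSC colonies 2 were higher and 6 lower. The summed normalized intensity of the 13 fibroblast markers on the array was 590100 to 602100 in GSC colonies, 24250 to 27170 in sorted cells and 346200 to 356000 in PGC colonies, with the Col1a1 probe under the 30th percentile in every group. Of 4 tested markers of peritubular myoid and smooth muscle 4 were higher in GSC colonies, 3 higher and 1 lower in PGC colonies, and 4 lower in PGC than in GSC colonies (sums of 75630 to 76380, 5308 to 5399 and 36980 to 38790 in GSC colonies, sorted cells and PGC colonies, Cnn1 being under the level in every group and Tagln in sorted cells). Of 7 tested skeletal muscle markers 1 was higher and 1 lower in GSC colonies, while 6 were higher in PGC colonies than in sorted cells and 6 were higher and 1 lower than in GSC colonies (sums of 16100 to 17650, 3099 to 3290 and 16470 to 17750). Most of that sum in GSC colonies was Des, at 13.87 and 13.75, a gene of smooth muscle too. Acta1 lay under the level in GSC colonies and sorted cells, Myh3 in sorted cells and Myf5 throughout. Acta1 therefore passed the filter through the PGC colony arrays alone and could only come out higher there. Myh3, and Tagln among the myoid markers, passed through colony arrays alone, so against sorted cells their direction was set by the filter. Germ cell markers gave 6 higher and 1 lower of 9 in GSC colonies, 1 higher and 3 lower in PGC colonies, and 7 lower in PGC than in GSC colonies (sums of 9452 to 9572, 5964 to 6101 and 4267 to 4779). Among these, Sohlh1 and Zbtb16 passed the filter through the GSC colony arrays alone, so they could only come out higher there. Against sorted cells, Sertoli, leukocyte and endothelial markers were mostly lower in colonies: 9 of 10, 8 of 8 and 6 of 6 were lower in GSC colonies, and 10 of 10, 8 of 8 and 6 of 6 in PGC colonies. In PGC against GSC colonies 6 leukocyte markers were higher and 1 lower, 1 Sertoli marker was higher and 2 lower, and 1 endothelial marker was higher and 1 lower. Leukocyte sums were 4650 to 4847, 89230 to 91010 and 7418 to 7545, with Adgre1, C1qb and Tyrobp under the level in GSC colonies. Sertoli sums were 291400 to 297500, 802300 to 882500 and 229200 to 253300, with Amh under the level in GSC colonies and Clu, at 17.78 and 17.74 there and 17.54 and 17.36 in PGC colonies, making up most of the colony sums. Endothelial sums were 4758 to 4809, 39590 to 42430 and 4879 to 5296. Of 7 epithelial and mesothelial markers 2 were higher and 4 lower in GSC colonies and 6 lower in PGC colonies, of 4 Leydig markers 1 was higher and 2 lower in GSC and 2 lower in PGC colonies, of 3 erythroid markers 3 were lower in each, and of 4 neural markers 2 were lower in GSC colonies and 1 was higher and 1 lower in PGC colonies. In PGC against GSC colonies 2 epithelial and mesothelial and 2 Leydig markers were lower, and 1 erythroid and 3 neural markers were higher. Hbb-b1 passed the filter through the sorted arrays alone and Sox2 through the PGC colony arrays alone, so each could only come out higher there. The dimmer probes of Star, Sox10 and Elavl3 passed in none of the comparisons, with every probe as its own row. Between the colonies they gave -0.19 ± 0.12, 0.32 ± 0.12 and -0.08 ± 0.15. The part of these markers in the Hox results was not tested.

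The Hoxa cluster held the largest differences of GSC colonies from sorted cells and of PGC from GSC colonies. All 8 tested genes of its 10 were higher in each kind of colony than in sorted cells, where 22.5% (GSC) and 22.8% (PGC) of all genes were. Among them Hoxa3, Hoxa9, Hoxa10 and Hoxa11 passed the filter through the colony groups alone, so they could only come out higher. In PGC colonies 6 of the 8 were lower than in GSC colonies, where 7.98% of all genes were. Across the 8 genes, which share arrays and are not replicates, Spearman's rho between paralogue number and the log2 difference of PGC from GSC colonies was -0.929. The same value was 0.3 over 9 Hoxb genes, -0.9 over 5 Hoxc genes and -0.321 over 7 Hoxd genes, and none was tested. Hoxa13, which lay under the level on all arrays, was not among the 8 Hoxa genes. No rho is given against sorted cells, where Hoxa3, Hoxa9, Hoxa10 and Hoxa11 have only bounds.

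Hoxa11, which is needed for the uterus, the male ducts, the kidney and the forearm, measured 13.18 and 13.11 in GSC colonies, 7.11 and 6.96 in sorted cells, and 9.68 and 9.80 in PGC colonies. No groups overlapped, and the sorted arrays lay under the 30th percentile. Its level in GSC colonies exceeded that in sorted cells at least 40.1-fold (fitted log2 difference 6.11). That fold was taken against the 30th percentile because the sorted level is only a bound. Hoxa11 passed the filter through the colony arrays alone, so it could only be higher there, and no p-value is given against sorted cells. In PGC colonies it was at least 3.78-fold higher than in sorted cells (fitted 2.71). It was 10.6-fold lower in PGC than in GSC colonies (-3.41 ± 0.12, SE, n = 2 arrays a group; limma adjusted p = 2.85e-05).

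Hoxa10, whose loss causes undescended testes and infertility in mice, showed the same order. It measured 13.36 and 13.23 in GSC colonies, 7.47 and 7.19 in sorted cells, and 10.05 and 10.45 in PGC colonies. As deposited, before any step taken here, the intensities were 12180 and 11444, 92.7 and 60.4, and 1136 and 1460. The 3 groups were clearly separate on either scale. In GSC colonies Hoxa10 was at least 44.5-fold higher (fitted 5.97) and in PGC colonies at least 5.39-fold higher (fitted 2.92) than in sorted cells. These folds are again bounds, for a gene that passed the filter through the colony arrays alone. PGC colonies were 8.26-fold below GSC colonies (-3.05 ± 0.18, limma adjusted p = 0.000196).

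Hoxa9, a posterior gene also known for its part in blood stem cells and leukaemia, measured 11.37 and 11.24 in GSC colonies, 7.20 and 7.34 in sorted cells, and 9.31 and 9.39 in PGC colonies. Sorted arrays were again under the level, and PGC colonies lay between the other groups. In GSC colonies it was at least 11.2-fold higher and in PGC colonies at least 2.89-fold higher, with 3.88-fold less in PGC than in GSC colonies (-1.95 ± 0.11, limma adjusted p = 0.000207). Hoxa7, a central gene of the cluster, measured 13.71 on both GSC colony arrays, 10.17 and 10.14 in sorted cells, and 12.47 and 12.06 in PGC colonies. It stood above the level in all groups, so its folds are measured: 11.8-fold higher in GSC colonies (3.56 ± 0.15), 4.33-fold higher in PGC colonies (2.11 ± 0.15), and 2.72-fold lower in PGC than in GSC colonies (-1.44 ± 0.15, adjusted p = 0.00196).

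The other tested Hoxa genes lie toward the anterior end. Hoxa5, which acts in lung and thymus development, was 2.64-fold higher in GSC colonies and 1.79-fold higher in PGC colonies, and its fall from GSC to PGC colonies (-0.56 ± 0.12, limma adjusted p = 0.0258) was lost without any 1 of the colony arrays or CD49f+ sorted replicate 1, with the replicate block, and with only the groups compared in the fit. Hoxa4 was 1.75-fold and 1.41-fold higher, the latter lost without either sorted array, and did not pass between colonies (-0.31 ± 0.11, adjusted p = 0.119). Hoxa3, which shapes the pharyngeal arches and their glands, lay under the level in sorted cells and was at least 2.59-fold and at least 1.45-fold higher in GSC and PGC colonies. It was lower in PGC than in GSC colonies by -0.83 ± 0.17 (adjusted p = 0.0225), a call lost without GSC colony replicate 2 or PGC colony replicate 2. Hoxa2, a hindbrain and branchial arch gene, measured 10.19 and 10.07 in GSC colonies, 9.10 and 8.98 in sorted cells, and 10.06 and 10.22 in PGC colonies, so the colonies overlapped each other and both stood clear of sorted cells (1.09 ± 0.12 and 1.10 ± 0.12).

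**Figure D2:**
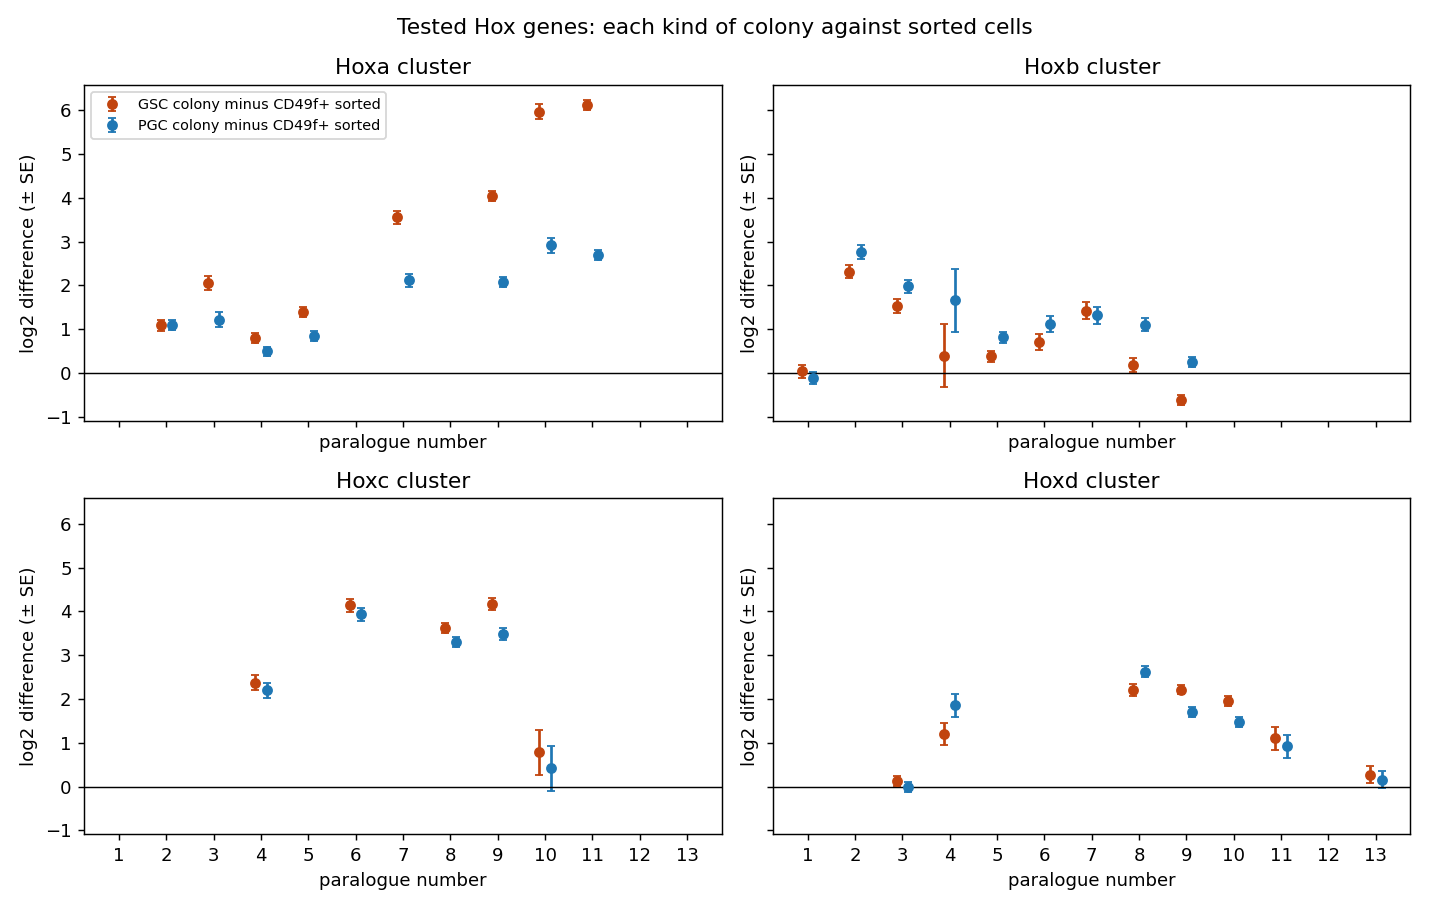
Fitted log2 difference of each tested Hox gene (points, with SE bars) in GSC colonies and in PGC colonies against CD49f+ sorted cells, by paralogue number, 1 panel per cluster. In Hoxa the points for GSC colonies run from 0.81 at Hoxa4 to 6.11 at Hoxa11, while in Hoxb the point at Hoxb9 lies at -0.62; values for genes under the level in sorted cells are fitted, not bounds.

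The Hoxb cluster behaved otherwise. Of its 10 genes 9 were tested, and in GSC colonies against sorted cells 4 were higher and 1 lower, in PGC colonies 6 were higher, and in PGC against GSC colonies 2 were higher. Over all genes 22.5% and 24.5%, 22.8% and 23.2%, and 7.08% and 7.98% were called higher and lower in these comparisons. Hoxb2, which patterns the hindbrain and facial nerve, had the largest differences of the cluster from sorted cells. Its levels were 11.68 and 11.47 in GSC colonies, 9.32 and 9.20 in sorted cells, and 11.86 and 12.19 in PGC colonies. It was 4.97-fold higher in GSC colonies (2.31 ± 0.15, limma adjusted p = 5.77e-05) and 6.78-fold higher in PGC colonies (2.76 ± 0.15, adjusted p = 3.28e-05). The colonies did not overlap each other but their difference did not pass (0.45 ± 0.15, adjusted p = 0.109).

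Hoxb3, which acts beside Hoxa3 in the pharyngeal region, had 2 probes that disagreed. The brighter, PH_mM_0006666, measured 10.48 and 10.35 in GSC colonies, 8.97 and 8.78 in sorted cells, and 10.68 and 11.03 in PGC colonies, and was higher in both kinds of colony (1.54 ± 0.16 and 1.98 ± 0.16). The other, PH_mM_0014029, measured 9.38 and 9.35, 9.28 and 9.36, and 9.73 and 9.24, and passed in neither (0.05 ± 0.17, adjusted p = 0.847, and 0.17 ± 0.17, adjusted p = 0.468, limma with every probe as its own row). The Hoxb3 rise therefore rests on 1 of its 2 probes.

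At the posterior end, Hoxb9 went against its cluster. This gene acts in the thoracic skeleton and mammary gland. It measured 10.34 and 10.14 in GSC colonies, 10.90 and 10.81 in sorted cells, and 11.05 and 11.17 in PGC colonies. GSC colonies were the lowest group, with no overlap, and Hoxb9 was the only Hox gene called lower in them than in sorted cells (-0.62 ± 0.12, limma adjusted p = 0.00678). That call was lost without normalization between arrays or without CD49f+ sorted replicate 1. PGC colonies did not differ from sorted cells past the threshold (0.25 ± 0.12, adjusted p = 0.143) and were 1.83-fold above GSC colonies (0.87 ± 0.12, adjusted p = 0.00587). Hoxb8, known from blood progenitors, measured 8.31 and 8.46 in GSC colonies, 8.21 on both sorted arrays, and 9.52 and 9.11 in PGC colonies. Here PGC colonies alone stood high, 2.16-fold above sorted cells (1.11 ± 0.16, adjusted p = 0.00169) and 1.90-fold above GSC colonies (0.93 ± 0.16, adjusted p = 0.0121), while GSC colonies and sorted cells did not differ past the threshold (0.18 ± 0.16, adjusted p = 0.396).

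Hoxb7 and Hoxb6 were higher in both kinds of colony, by 1.43 ± 0.19 and 0.71 ± 0.18 in GSC and by 1.32 ± 0.19 and 1.12 ± 0.18 in PGC colonies. The GSC value of Hoxb6 lost its call without CD49f+ sorted replicate 1 or GSC colony replicate 1. Hoxb5 passed in PGC colonies (0.82 ± 0.13, limma adjusted p = 0.00277) and not in GSC colonies (0.38 ± 0.13, adjusted p = 0.0536), and the difference between the colonies did not pass (0.44 ± 0.13, adjusted p = 0.0759). The GSC value of Hoxb5 passed under 7 of 17 alternatives, with an adjusted p of 0.0404 with only the groups compared in the fit. Hoxb1, the most anterior gene of the cluster and a marker of hindbrain rhombomere identity, ranged only from 10.12 to 10.47 over the 6 arrays on a probe well above the 30th percentile, and passed in none of the comparisons. Hoxb4, a gene used to expand blood stem cells, measured 6.99 and 9.46 in GSC colonies, 7.98 and 7.68 in sorted cells, and 9.36 and 9.63 in PGC colonies. The GSC colony arrays lay on both sides of the sorted ones, while PGC colonies did not overlap sorted cells (1.66 ± 0.72). No Hoxb4 difference passed, that of PGC colonies from sorted cells having a limma adjusted p of 0.108, but it passed with only the groups compared in the fit (3.33e-05) and without GSC colony replicate 1 (2.94e-05) or replicate 2 (3.48e-05). Without GSC colony replicate 1 its difference from sorted cells was 1.62, and without GSC colony replicate 2 it was -0.83 (adjusted p = 0.0102).

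In the Hoxc cluster 5 of 9 genes were tested, and 4 of them were higher in each kind of colony than in sorted cells, with 1 lower in PGC than in GSC colonies. Of all genes, 22.5% were higher in GSC and 22.8% in PGC colonies than in sorted cells, and 7.98% were lower in PGC than in GSC colonies. Hoxc9 passed the filter through the colony groups alone. Hoxc6, a thoracic gene active in mammary gland and prostate, measured 12.93 and 12.80 in GSC colonies, 8.66 and 8.80 in sorted cells, and 12.50 and 12.83 in PGC colonies. Both kinds of colony stood far above sorted cells and overlapped each other. Hoxc6 was 17.6-fold higher in GSC colonies (4.14 ± 0.15, limma adjusted p = 5.46e-06) and 15.3-fold higher in PGC colonies (3.94 ± 0.15, adjusted p = 8.1e-06), the largest difference of any tested Hox gene there, and did not pass between the colonies (-0.20 ± 0.15, adjusted p = 0.417).

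Hoxc9, which separates thoracic from limb-level motor neurons, measured 11.66 and 11.52 in GSC colonies, 7.26 and 7.57 in sorted cells, and 10.91 and 10.87 in PGC colonies. With sorted cells under the level, it was at least 13.6-fold higher in GSC and at least 8.41-fold higher in PGC colonies. It was 1.62-fold lower in PGC than in GSC colonies (-0.70 ± 0.14, limma adjusted p = 0.0214), a call lost without GSC colony replicate 1, PGC colony replicate 1 or PGC colony replicate 2. Hoxc8, another thoracic gene, had 2 probes that agreed in direction. Probe mMC005076 measured 12.57 and 12.52 in GSC colonies, 8.95 and 8.89 in sorted cells, and 12.13 and 12.31 in PGC colonies. Probe mMR029967 measured 11.47 and 11.495, 9.04 and 8.89, and 11.12 and 11.38. Against sorted cells the former rose by 3.63 ± 0.11 and 3.30 ± 0.11 in GSC and PGC colonies and the latter by 2.52 ± 0.13 and 2.28 ± 0.13, and neither passed between the colonies. Hoxc4, which overlaps other Hoxc transcripts through a shared upstream promoter, was 5.18-fold and 4.59-fold higher in GSC and PGC colonies than in sorted cells. Hoxc10, a posterior gene of hindlimb level, measured 10.06 and 9.05 in GSC colonies, 8.30 and 9.24 in sorted cells, and 8.63 and 9.75 in PGC colonies. The arrays of each group differed by more than the means of any groups did, and all groups overlapped.

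The Hoxd cluster had 7 tested genes of 9. In each kind of colony 5 were higher than in sorted cells, where 22.5% (GSC) and 22.8% (PGC) of all genes were. Hoxd11, 1 of the 5, passed the filter through the colony groups alone. In PGC against GSC colonies 2 were lower, where 7.98% of all genes were. Hoxd8 measured 12.32 and 12.27 in GSC colonies, 10.04 and 10.13 in sorted cells, and 12.56 and 12.86 in PGC colonies. It was 4.62-fold higher in GSC (2.21 ± 0.13, limma adjusted p = 3.98e-05) and 6.18-fold higher in PGC colonies (2.63 ± 0.13, adjusted p = 2.42e-05), and did not pass between colonies (0.42 ± 0.13, adjusted p = 0.0922). Hoxd9, a posterior gene of trunk and hindlimb, measured 12.81 and 12.69, 10.53 and 10.55, and 12.22 and 12.27 in the same order of groups. It was 4.63-fold and 3.26-fold higher in GSC and PGC colonies than in sorted cells, and PGC colonies were 1.42-fold below GSC colonies (-0.51 ± 0.11, adjusted p = 0.0252).

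Hoxd10, which acts in hindlimb motor neurons, measured 12.22 and 12.14 in GSC colonies, 10.26 and 10.20 in sorted cells, and 11.63 and 11.78 in PGC colonies, with no overlap between groups. Its differences were 1.96 ± 0.11 and 1.47 ± 0.11 against sorted cells and -0.48 ± 0.11 between the colonies (limma adjusted p = 0.0367). The Hoxd9 and Hoxd10 calls between colonies were lost with the replicate block, with only the groups compared in the fit, and without any 1 of the 6 arrays. Hoxd4, a hindbrain and cervical gene, measured 10.65 and 11.40 in GSC colonies, 9.96 and 9.68 in sorted cells, and 11.56 and 11.79 in PGC colonies, and was 2.30-fold and 3.61-fold higher in them than in sorted cells. Its GSC call was lost without CD49f+ sorted replicate 2. Hoxd11, which acts with Hoxa11 in kidney and forearm, was low, at 8.48 and 8.11, 6.85 and 7.54, and 7.94 and 8.28. It was at least 1.39-fold and at least 1.22-fold higher in GSC and PGC colonies, and both calls were lost without CD49f+ sorted replicate 1. The PGC call was also lost without PGC colony replicate 1 or replicate 2.

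Hoxd3 and Hoxd13 went against the majority of the cluster. Hoxd3, which shapes the upper cervical vertebrae, measured 12.02 and 11.93 in GSC colonies, 11.96 and 11.74 in sorted cells, and 11.85 and 11.84 in PGC colonies, and Hoxd13, a gene of digits and external genitalia, measured 11.46 and 11.11, 10.78 and 11.24, and 11.28 and 11.06. Both probes were well above the 30th percentile on all arrays, and no difference passed: for Hoxd3 the values were 0.13 ± 0.12 in GSC colonies against sorted cells, -0.01 ± 0.12 in PGC colonies against sorted cells and -0.13 ± 0.12 between colonies, and for Hoxd13 they were 0.27 ± 0.20, 0.16 ± 0.20 and -0.11 ± 0.20. Without normalization between arrays Hoxd3 was 0.69 higher in GSC and 0.51 higher in PGC colonies than in sorted cells (limma adjusted p = 0.00209 and 0.00796). Hoxd13 was then 0.80 and 0.65 higher (limma adjusted p = 0.0132 and 0.0303). The median of all genes in that setting was 0.47 in GSC and 0.42 in PGC colonies.

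**Figure D3:**
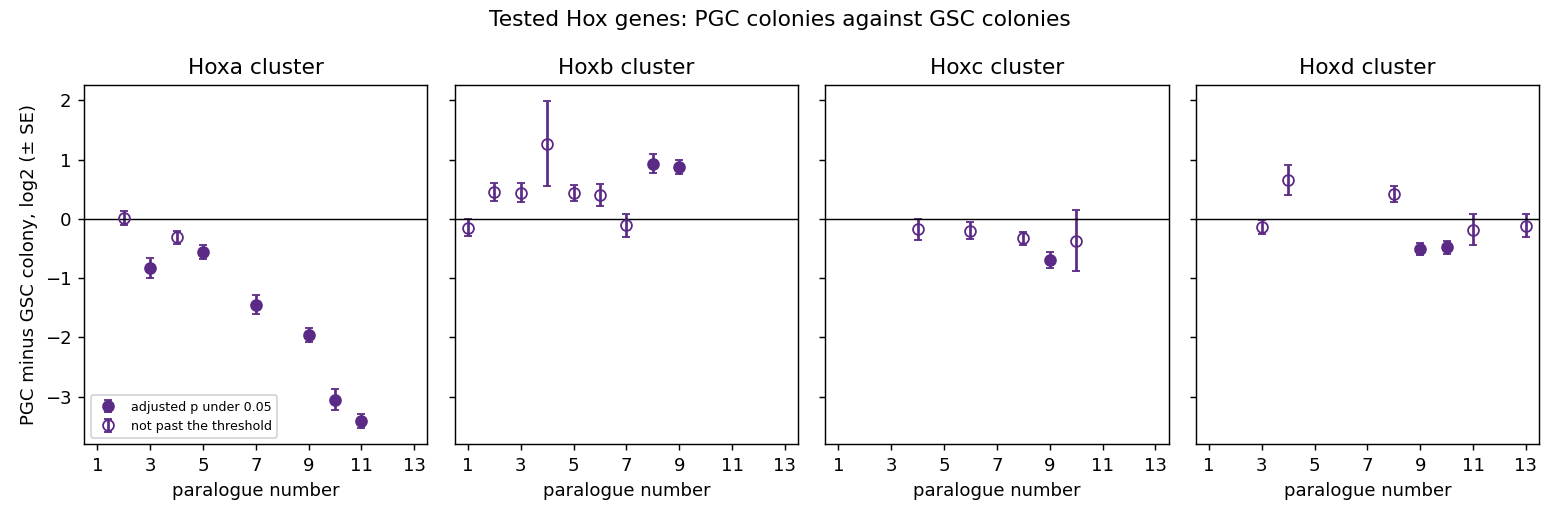
Fitted log2 difference of each tested Hox gene between PGC and GSC colonies (points, with SE bars), by paralogue number, 1 panel per cluster; filled points passed the threshold. In Hoxa the difference runs from 0.01 at Hoxa2 down to -3.41 at Hoxa11, and in Hoxb the filled points are Hoxb8 at 0.93 and Hoxb9 at 0.87.

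Set by position, calls between colonies were found in each part of the clusters. Of the 10 posterior genes tested (16 on the array) 6 were lower and 1 higher in PGC than in GSC colonies, where 7.98% of all genes were lower and 7.08% higher. Without GSC colony replicate 1, PGC colony replicate 1 or PGC colony replicate 2, Hoxc9, Hoxd9 and Hoxd10 lost their calls, which left Hoxa9, Hoxa10 and Hoxa11 of the 6. Of 13 central genes tested (15 on the array) 2 were lower and 1 higher, and of 6 anterior ones (7 on the array) 1 was lower and 0 higher (2 higher at an unadjusted p under 0.05, 0 with limma's trended fit). The anterior call, Hoxa3, was lost without GSC colony replicate 2 or PGC colony replicate 2. Central Hoxa5 lost its call under 7 of 17 alternatives. Against sorted cells the counts were 7 higher and 1 lower, 10 higher, and 4 higher of posterior, central and anterior genes in GSC colonies, and 7, 12 and 4 higher in PGC colonies. Of all genes, 22.5% were higher and 24.5% lower in GSC colonies, and 22.8% were higher in PGC colonies. Anterior Hoxa3 and posterior Hoxa9, Hoxa10, Hoxa11, Hoxc9 and Hoxd11 passed the filter through the colony groups alone. Whether position and response go together was not tested, since genes of a cluster are not replicates.

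The 9 genes under the level on all arrays were Hoxa6, Hoxa13, Hoxb13, Hoxc5, Hoxc11, Hoxc12, Hoxc13, Hoxd1 and Hoxd12, which include 5 of the 6 genes of groups 12 and 13 with a probe, Hoxd13 being the other. Hoxc5 measured 7.61 and 7.54 in GSC colonies, 6.55 and 6.59 in sorted cells, and 7.11 and 7.44 in PGC colonies, all dim. No difference is given for these genes, since all groups lay under the level and their values are bounds. The calls that Hoxc5, Hoxa6 and Hoxb13 add to the counts with no filter are therefore not read. Hoxa13 lay between 5.99 and 6.48 on the 6 arrays, while its neighbours Hoxa10 and Hoxa11 had the largest differences of the cluster from GSC colonies to sorted cells and to PGC colonies.

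The arrays of a pair mostly agreed on the Hox genes. Over the 38 genes the median gap between them was 0.13 on the log2 scale in GSC colonies, 0.15 in sorted cells and 0.22 in PGC colonies. A gap of 1 or more was found for 3 genes in GSC colonies (Hoxb4, Hoxc10 and Hoxc11), 0 in sorted cells and 1 in PGC colonies (Hoxc10).

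Most listed genes of proteins that act with Hox proteins were higher in each kind of colony than in sorted cells. TALE homeodomain proteins (Pbx, Meis and Pknox) join Hox proteins on DNA and sharpen their choice of site. Of 11 listed cofactor and partner genes 10 were on the array and tested. In GSC colonies 7 were higher and 1 lower than in sorted cells, in PGC colonies 6 higher and 1 lower, and in PGC against GSC colonies 1 higher and 2 lower, with list medians of 0.95, 0.72 and -0.05. Over all genes 22.5% and 24.5%, 22.8% and 23.2%, and 7.08% and 7.98% were called higher and lower in these comparisons. Pbx2 and the brighter Pknox1 probe passed against sorted cells in neither kind of colony, and Pbx4 did not in PGC colonies. The dimmer Pknox1 probe, PH_mM_0013446, was higher in PGC colonies (0.53 ± 0.16, adjusted p = 0.0348, limma with every probe as its own row) and did not pass in GSC colonies (0.11 ± 0.16). Pbx3, a Pbx partner of many Hox proteins, measured 11.65 and 11.85 in GSC colonies, 9.04 and 9.13 in sorted cells, and 12.67 and 12.77 in PGC colonies. The 3 groups were separate, with PGC colonies 12.4-fold above sorted cells (3.63 ± 0.12, limma adjusted p = 5.88e-06), GSC colonies 6.34-fold above them (2.66 ± 0.12) and a difference between colonies of 0.97 ± 0.12 (adjusted p = 0.00339). Meis3 lay under the level in sorted cells and was at least 1.61-fold and at least 2.20-fold higher in GSC and PGC colonies. Meis3 passed the filter through the colony arrays alone, so in both counts against sorted cells it could only come out higher. Pbxip1, which encodes a protein that holds Pbx off DNA, was higher in both (1.96 ± 0.11 and 1.09 ± 0.11) and lower in PGC than in GSC colonies (-0.87 ± 0.11, adjusted p = 0.00389). Pbx4 was higher in GSC colonies (0.70 ± 0.12) and lower in PGC than in GSC colonies (-0.71 ± 0.12). Gmnn, which encodes geminin, a replication licensing inhibitor that also binds Hox proteins, was lower in both kinds of colony than in sorted cells (-1.90 ± 0.23 and -1.63 ± 0.23).

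**Figure D4:**
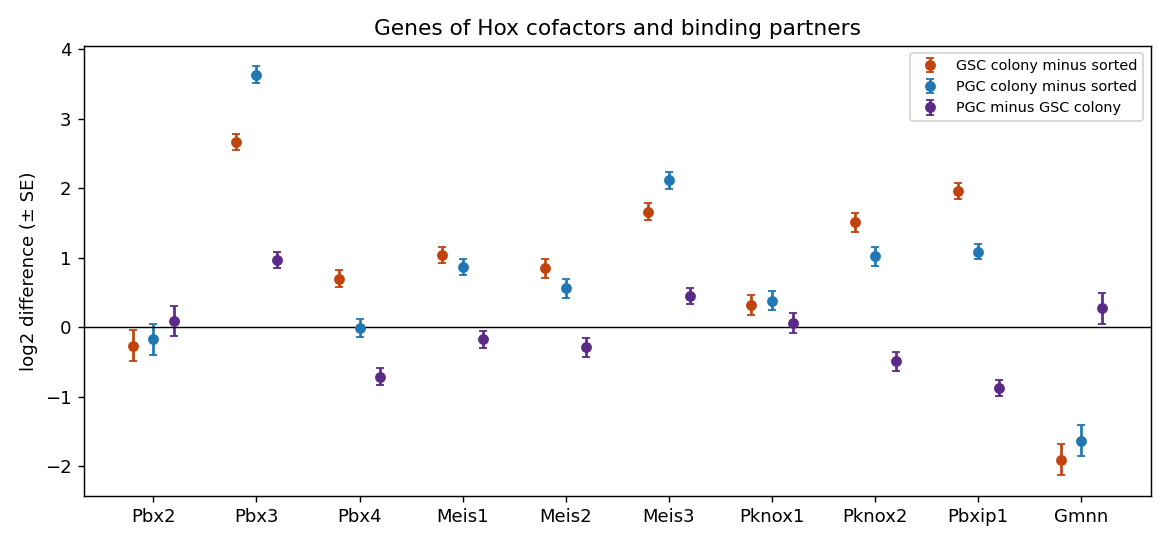
Fitted log2 differences (points, with SE bars) of the 10 tested Hox cofactor and partner genes in the 3 comparisons. Pbx3 has the highest points, at 2.66 and 3.63 against sorted cells, and Gmnn lies below 0 in both comparisons with sorted cells.

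Chromatin genes that hold Hox clusters silent or active were mixed. Of 28 tested Polycomb genes, which keep Hox genes off through histone marks, 4 were higher and 8 lower in GSC colonies than in sorted cells, 4 higher and 8 lower in PGC colonies, and 4 higher and 1 lower in PGC than in GSC colonies, with list medians of -0.18, 0.00 and 0.05. These counts are read against 22.5% higher and 24.5% lower, 22.8% and 23.2%, and 7.08% and 7.98% of all genes, and those against sorted cells are no result about the list. Cbx6 and Bmi1, members of the complex that compacts chromatin, were higher in both kinds of colony (2.03 ± 0.13 and 1.73 ± 0.14 in GSC, 1.76 ± 0.13 and 1.60 ± 0.14 in PGC). Ezh2, the enzyme that places the repressive H3K27 mark, was lower in both (-1.31 ± 0.11 and -0.74 ± 0.11) and higher in PGC than in GSC colonies (0.57 ± 0.11, limma adjusted p = 0.0219). Of 12 tested Trithorax and H3K27 demethylase genes, which keep Hox genes on, 0 were higher and 7 lower in GSC colonies, 1 higher and 1 lower in PGC colonies, and 3 higher and 0 lower in PGC than in GSC colonies. At an unadjusted p under 0.05 the zeros were 1 and 0, and with limma's trended fit 0 and 0. The list medians were -0.44, -0.19 and 0.19. Kdm6a, a demethylase of that mark, was lower in GSC colonies than in sorted cells (-0.65 ± 0.12) and higher in PGC than in GSC colonies (0.69 ± 0.12, adjusted p = 0.0124). Wdr5, a core subunit of the activating complexes, did likewise (-0.70 ± 0.12 and 0.50 ± 0.12). Dpy30, of the same complexes, was lower in both kinds of colony on the brightest of its 3 probes (-0.99 ± 0.22 and -0.92 ± 0.22) and on probe PH_mM_0017587 (-1.17 ± 0.13 and -0.78 ± 0.13, limma adjusted p = 0.000537 and 0.00325), while probe PH_mM_0004788, the dimmest, gave 0.07 and 0.01 there.

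Retinoic acid switches on anterior Hox genes in the embryo, and its enzymes and receptors were listed with other known regulators of Hox expression. Their counts against sorted cells were near the shares over all genes and are no result about the list. Of 19 tested genes 6 were higher and 4 lower in GSC colonies, 7 higher and 4 lower in PGC colonies, and 4 higher and 1 lower in PGC than in GSC colonies, with list medians of -0.01, 0.10 and 0.15, where 22.5% and 24.5%, 22.8% and 23.2%, and 7.08% and 7.98% of all genes were higher and lower. Aldh1a2, which makes retinoic acid, was higher in both kinds of colony (1.85 ± 0.18 and 1.01 ± 0.18) and lower in PGC than in GSC colonies (-0.84 ± 0.18, limma adjusted p = 0.0271). Cyp26b1, which breaks it down and is made by Sertoli cells in the fetal testis, was lower in both (-2.38 ± 0.12 and -1.87 ± 0.12). The receptor gene Rara was lower in both (-1.19 ± 0.13 and -0.56 ± 0.13), and Aldh1a3 was higher in PGC colonies alone (1.19 ± 0.11 against sorted cells and 1.09 ± 0.11 against GSC colonies). Egr2, a hindbrain activator of Hoxb2, was higher in both and highest in PGC colonies (0.90 ± 0.13 and 1.91 ± 0.13). Zfp503 had the largest rises of the list (2.73 ± 0.12 and 2.86 ± 0.12), and Ctcf, which sets boundaries within Hox clusters, was lower in both (-1.04 ± 0.11 and -0.94 ± 0.11).

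Neighbours of the clusters were called about as often as all genes, which is no result about the list. Of 40 listed neighbours and non-coding genes 26 were on the array and 22 tested, of which 5 were higher and 5 lower in GSC colonies, 3 higher and 5 lower in PGC colonies, and 0 higher and 2 lower in PGC than in GSC colonies (at an unadjusted p under 0.05, 1 higher there, and 0 with limma's trended fit), with list medians of -0.10, -0.06 and -0.00. The shares over all genes were 22.5% and 24.5%, 22.8% and 23.2%, and 7.08% and 7.98%. Hoxa11os, the antisense transcript of Hoxa11, measured 10.54 and 10.76 in GSC colonies, 6.33 and 6.25 in sorted cells, and 8.25 and 8.38 in PGC colonies. Its groups stood in the order of Hoxa11, at least 7.09-fold and at least 1.41-fold above sorted cells and 5.04-fold lower in PGC than in GSC colonies (-2.33 ± 0.13, limma adjusted p = 0.000148). Like Hoxa11, it passed the filter through the colony arrays alone, so against sorted cells it could only come out higher. The strand that either probe reads was not given, so RNA of the pair cannot be told apart. Evx1 and Evx2, the homeobox genes at the posterior ends of Hoxa and Hoxd, passed in none of the comparisons, and neither did Mtx2, Ttll6 or Hoxaas3. Beyond the clusters, Nfe2l1 near Hoxb was higher in both kinds of colony (1.08 ± 0.15 and 1.50 ± 0.15), and Jazf1 on the Hoxa side was lower in both (-1.10 ± 0.12 and -1.21 ± 0.12). Mir10a, Mir196a-2 and Mir196b, microRNA genes within the clusters, lay under the level on all arrays.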

How the data were processed

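RNA of 3 groups of 2 arrays was measured with Cy5 label. The deposited table holds the authors' probe intensity on a linear scale, with values below 0 on 4 arrays. Per the labels, 1 µg of total RNA with an RNA integrity number of at least 6 was amplified. Of scanner, background method and scaling, each was not given in the sources used here. Probes were named through the series' probe table (21876 with 1 symbol, 0 with several, 4547 with none). Entrez identifiers of 21825 were in the RefSeq gene table and led to 0 new symbols.

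Intensities were corrected with normexp (offset 50), log2-transformed and quantile normalized. For 2424 genes with several probes the one with the highest mean stood for the gene. A gene was tested when 2 of 6 arrays reached the 30th percentile of the array (7.82), which left 15459 genes. No detection calls were used, so signal over background was judged by this level alone, and precision was limited by having 2 arrays a group. limma 3.58.1 in R 4.3.3 fitted a mean per group on all arrays (3 residual degrees of freedom), and genes with a Benjamini-Hochberg adjusted p under 0.05 were called. Where the dimmer group had both arrays below that percentile, the fold is a lower bound against the higher of the percentile and the probe's own signal on each array. The fit was tested on simulated data with 200 changed genes.

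Every Hox gene is named. Values by array are given for up to 2 rises and 2 falls per cluster and comparison, for genes with several probes and for genes that go against their cluster, and the same number was taken from each list of regulators. Members and lists (cofactors, Polycomb, Trithorax, regulators, neighbours and cell type markers) were chosen with earlier results of these data known. Alternatives changed the normalization, background step, filter, probe choice, fit and arrays. Promoters came from RefSeq (GRCm38.p6), and 0 deposited sample columns were left unused.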

Additional observations from a re-analysis of the deposited data

How the results depend on the processing

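Over up to 17 alternatives for each Hox gene, no called Hox difference changed sign, and 18 of 22, 21 of 23 and 6 of 11 calls (GSC colonies against sorted cells, PGC colonies against sorted cells, PGC against GSC colonies) were made under every alternative in which the gene was tested. The filter at the 50th percentile left 1 Hox gene higher in PGC than in GSC colonies, since Hoxb8 was not tested there. With no filter 1 was lower in PGC colonies than in sorted cells (Hoxb13, under the 30th percentile in both groups), and without normalization between arrays 0 were lower in GSC colonies than in sorted cells. With 1 array left out, the Hox genes lower in PGC than in GSC colonies numbered 4 to 7, those higher there 2 to 4, those lower in GSC colonies than in sorted cells 0 to 2 (0 without CD49f+ sorted replicate 1, and 2, with Hoxb4, without GSC colony replicate 2), and all genes called between the colonies 1445 (without GSC colony replicate 1) to 2039, against 2329, with 1527 without PGC colony replicate 2.

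Whether replicate numbers pair the samples cannot be settled with 2 arrays a group. The correlation of deviations was -0.342 for GSC colonies with sorted cells, -0.179 for GSC with PGC colonies and 0.326 for sorted cells with PGC colonies. As deposited, replicate 2 had more probes below 0 than replicate 1 in each group (310 and 0 in GSC colonies, 474 and 86 in sorted cells, 52 and 0 in PGC colonies). With the replicate block the Hox counts were 21 higher and 1 lower, 23 higher and 0 lower, and 2 higher and 6 lower, and 6804, 6637 and 1707 of all genes were called. With only the groups compared in the fit 6 Hox genes were lower in PGC than in GSC colonies and 1601 of all genes were called.

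Values that were not called changed sign as follows. For Hoxa2 between the colonies it was -0.0265 with median centring, -0.0489 without normalization and -0.073 to 0.0941 with an array left out. For Hoxb1 it was -0.10 to 0.18 in GSC colonies against sorted cells, and in PGC colonies 0.33 without normalization and -0.25 to 0.0342 with an array left out. For Hoxd3 in PGC colonies against sorted cells it was 0.11 with median centring, 0.51 without normalization and -0.12 to 0.10 with an array left out. With an array left out, Hoxb4 ran from -0.83 to 1.62 in GSC colonies against sorted cells, and in PGC colonies against sorted cells Hoxc10 ran from -0.14 to 0.99 and Hoxd13 from -0.0648 to 0.39. Between the colonies Hoxb7 ran from -0.38 to 0.16, Hoxc10 from -0.93 to 0.20, Hoxc4 from -0.40 to 0.0562, Hoxd11 from -0.37 to 0.0055 and Hoxd13 from -0.29 to 0.0622. Where no cause is given, the cause was not tested. With 2 arrays a group, and 9 genes under the 30th percentile on all arrays, small differences and dim genes are the least certain.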
